A study of Rattus norvegicus with 15 samples.

Results

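Rat cortical astrocytes that had been exposed to H2O2 and then given lipid-encapsulated RNA (MitoCoat-mRNA) were compared with astrocytes that received neither. The comparison took in all 3 libraries labelled MitoCoat-mRNA and all 3 labelled control, 6 of the 15 libraries of the series, and asked which changes of gene expression were present after oxidative stress when the RNA treatment had been given. The cells were primary cultures from the cortices of newborn Sprague Dawley rats, without a transgene or a deletion. MitoCoat-mRNA wells were exposed to 100 µM H2O2 for 30 min, received RNA 24 h later at 100 ng per 100 µL of medium, and were collected after a further 6 h. The RNA came from mitochondria-enriched fractions, which the study prepared from rat placenta for these treatments, and was enclosed in the lipids DOTAP and DOPE. Control wells received water in place of H2O2 and no later treatment. A group given H2O2 without a later treatment (3 libraries) was used for reference. Among the libraries analysed here, no unstressed cells received encapsulated RNA, so within the comparison with control the effects of H2O2, lipid and RNA cannot be told apart.

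Astrocytes are glial cells that supply neurons with energy substrates and antioxidants, and they are among the cells exposed to peroxide after brain injury. H2O2 crosses membranes, oxidizes proteins, lipids and DNA, and in general sets off transcription of antioxidant, damage-response and inflammatory genes. Mitochondria carry a small genome of their own, which encodes subunits of the respiratory chain and ATP synthase together with the tRNAs and rRNAs that translate them, while most mitochondrial proteins come from nuclear genes. Cationic lipids such as DOTAP bind RNA and carry it into cells.

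The data were raw read counts for 32552 annotated genes of the Rnor6.0 assembly, listed by Ensembl identifiers that the files do not pair with gene names. 0 of these identifiers matched the reference table at hand, so that gene functions, antioxidant and damage-response genes, and the markers that would identify astrocytes or other cells were not analysed here. Genes are therefore given by identifier or by position. Total counts ranged from 39311094 to 46778663 in the 3 control libraries and from 40539862 to 44527847 in the 3 MitoCoat-mRNA libraries, and between 18789 and 19168 genes had at least 1 count in each of the 6. These depths put a floor of 3 counts between 0.0641 and 0.0763 counts per 1000000 counts (CPM), counting error only. The study calls the RNA samples of a group biological replicates. The labels do not say whether they came from separate cultures, so p-values measure the spread between these libraries, whatever its source. Because RNA was taken in bulk, fewer cells of a kind and less RNA per cell cannot be told apart in any of the values.

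Libraries with the same number in different groups shared features that their group did not explain. Counts on chromosome Y genes were 94.7 to 118.8 CPM in the 5 libraries numbered 1, 75.7 to 89.0 CPM in the 5 numbered 2, and 46.97 to 59.8 CPM in the 5 numbered 3, with no overlap between numbers. Across 15611 genes, deviations from the group mean correlated at 0.497, 0.19 and 0.354 between same-numbered control and MitoCoat-mRNA libraries, against −0.386 to 0.126 for libraries of different numbers. Deviations from a group mean cancel within the group, so positive same-number values lower the others, and the ranges are not independent. Of the variance of log2 CPM among the 6 libraries, 49.5% lay between the groups, 34.6% between the library numbers and 15.9% in the remainder. The labels do not say what a number stands for. By the criterion that every same-number correlation exceeded 0.1, the libraries were also analysed as pairs, with the number as a block.

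**Figure D1:**
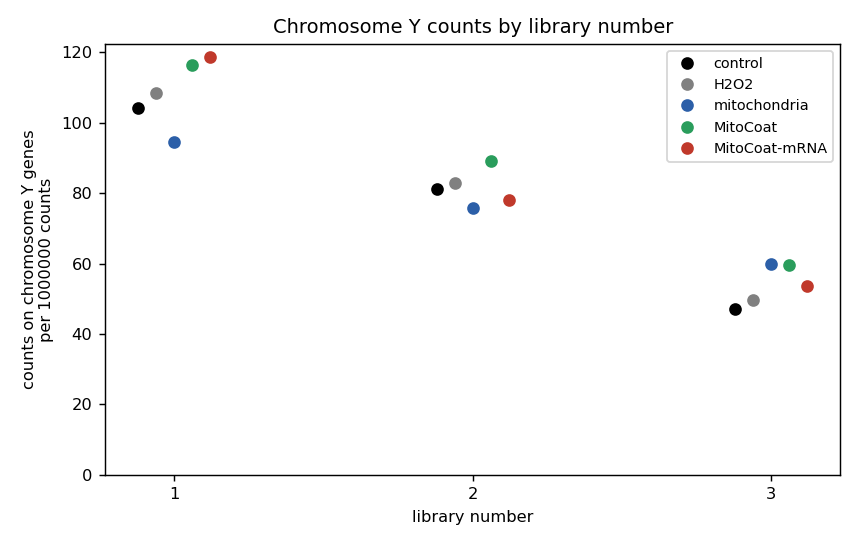
Counts on chromosome Y genes per 1000000 counts (vertical axis, from 0) in each of the 15 libraries, by library number (horizontal axis) and group (colour). The libraries numbered 1 lie at 94.7 to 118.8, those numbered 2 at 75.7 to 89.0 and those numbered 3 at 46.97 to 59.8, whatever their group.

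MitoCoat-mRNA libraries differed from control libraries in 2482 genes, with more genes lower than higher. Of 15611 genes tested with edgeR's quasi-likelihood test, 1121 were higher (7.18%) and 1361 lower (8.72%) at a Benjamini-Hochberg adjusted p under 0.05, together 15.9% of the genes. The fall was also the steeper side, with 471 of the genes called lower changed by more than 2-fold against 214 of those called higher. The median log2 fold change was 0.49 among the genes called higher and −0.78 among those called lower, and 0.00 over all genes tested. At more than 8-fold the balance was 18 higher to 14 lower. For 5672 genes (36.3% of those tested), every MitoCoat-mRNA value lay on the same side of every control value. The mean Euclidean distance on log2 CPM between libraries of different groups was 89.1 against 63.3 within groups (two-sided exact permutation p = 0.1, the smallest that 3 libraries against 3 allow).

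**Figure D2:**
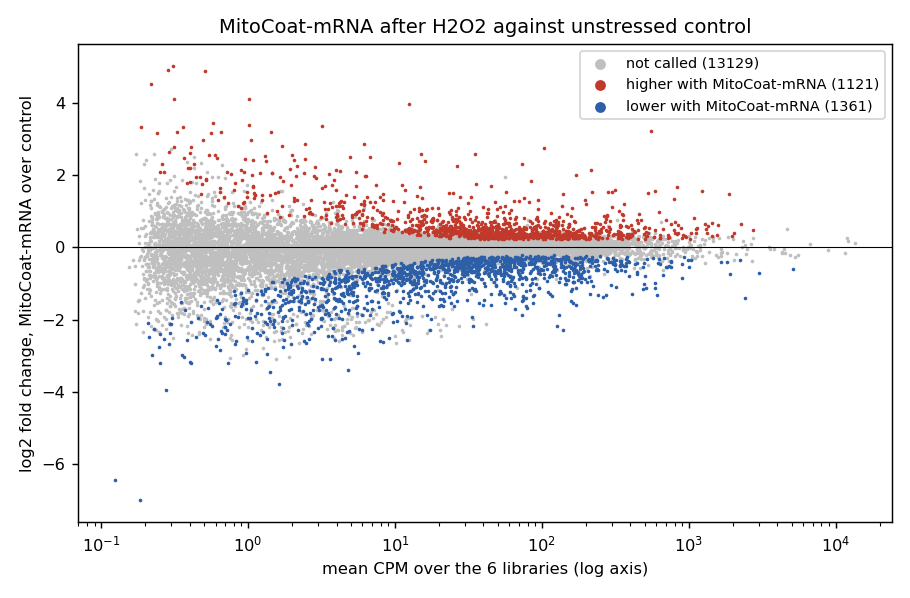
Log2 fold change of MitoCoat-mRNA over control (vertical axis) against mean CPM of the 6 libraries (horizontal log axis) for each of the 15611 genes tested, with genes called by edgeR without a block in colour. The 1121 genes called higher and the 1361 called lower extend over the whole range of abundance, and the 471 lower by more than 2-fold outnumber the 214 higher by more than 2-fold.

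With the library number as a block, the spread left between libraries fell and many more genes passed the test. 2705 genes were then called higher (17.3%) and 3051 lower (19.5%), 36.9% in all, and the 2482 genes called without the block were called in the same direction with it. The biological coefficient of variation common to all genes was 0.165 without the block and 0.0738 with it. The balance of directions depended on where the scale was centred. A correction for each library's trend with exonic length that also re-centred the libraries moved the median log2 fold change of all genes to 0.08 and gave 2244 genes higher and 1159 lower, so that higher genes were 65.9% of those called in place of 45.2% (4167 and 2402 with the block). With the offsets centred so that only the trend was removed, an alternative added after these values were seen, the median was 0.01 and 1270 genes were higher and 1402 lower (47.5% higher), and 2816 and 2994 with the block. Leaving out 1 library changed the number of calls. 512 genes were higher and 737 lower without control 2, 609 and 888 without control 3, 711 and 1082 without MitoCoat-mRNA 1, 509 and 765 without MitoCoat-mRNA 2, 754 and 861 without MitoCoat-mRNA 3, and 1294 and 1474 without control 1.

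The genes with the largest changes among those with a mean of 1 CPM or more were of low abundance in at least 1 of the groups. ENSRNOG00000046449 lies on the plus strand of chromosome 4 at 79573998 to 79581208 (Rnor6.0) with 575 exonic bases. It had 0.1, 0.0975 and 0.131 CPM in control libraries 1 to 3 and 1.18, 1.28 and 3.36 CPM in MitoCoat-mRNA libraries 1 to 3. The control values rested on 4, 4 and 6 counts and the MitoCoat-mRNA values on 47, 56 and 147. The log2 fold change was 4.10 ± 0.55 (SE, edgeR adjusted p = 0.0024), and 3.46 without MitoCoat-mRNA 3, the highest library. The absence of overlap between groups was a condition for naming this gene and the next 3. By library number the rise was 11.7-, 13.2- and 25.6-fold.

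The second gene that rose, ENSRNOG00000009734, occupies 61771970 to 61828657 on the plus strand of chromosome 4 with 2472 exonic bases. It had 1.00, 1.66 and 1.86 CPM in control and 19.2, 15.8 and 35.9 CPM with MitoCoat-mRNA, in the order of the library numbers. The log2 fold change was 3.96 ± 0.36 (SE, edgeR adjusted p = 0.000511). The pairs rose by 19.1-, 9.52- and 19.3-fold. Within each stressed group, library 3 of this gene was the highest of the 3, and it was also the highest of the control libraries.

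Both genes that fell had low counts and a high value in control library 1. ENSRNOG00000006932 spans 19465771 to 19574094 on the minus strand of chromosome 10 with 2538 exonic bases, and its CPM was 5.25, 2.17 and 1.79 in control and 0.40, 0.0458 and 0.228 with MitoCoat-mRNA. The last 3 values came from 16, 2 and 10 counts, and that of MitoCoat-mRNA 2 lies under the floor of 3 counts. Its log2 fold change was −3.77 ± 0.67 (SE, edgeR adjusted p = 0.00785), and it was −3.13 without control 1 and −4.45 without MitoCoat-mRNA 1. ENSRNOG00000009342, at 6617751 to 6626284 on the minus strand of chromosome 3 with 1283 exonic bases, had 6.38, 0.829 and 0.59 CPM in control and 0.30, 0.229 and 0.183 CPM with MitoCoat-mRNA. Its log2 fold change of −3.44 ± 0.94 (SE, edgeR adjusted p = 0.0408) rested in large part on control library 1. Without that library it was −1.56 (edgeR adjusted p = 0.0674), and the call was lost in 4 of the 6 fits that left out a library, whereas with the block it was −2.91 (edgeR adjusted p = 0.000304).

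**Figure D3:**
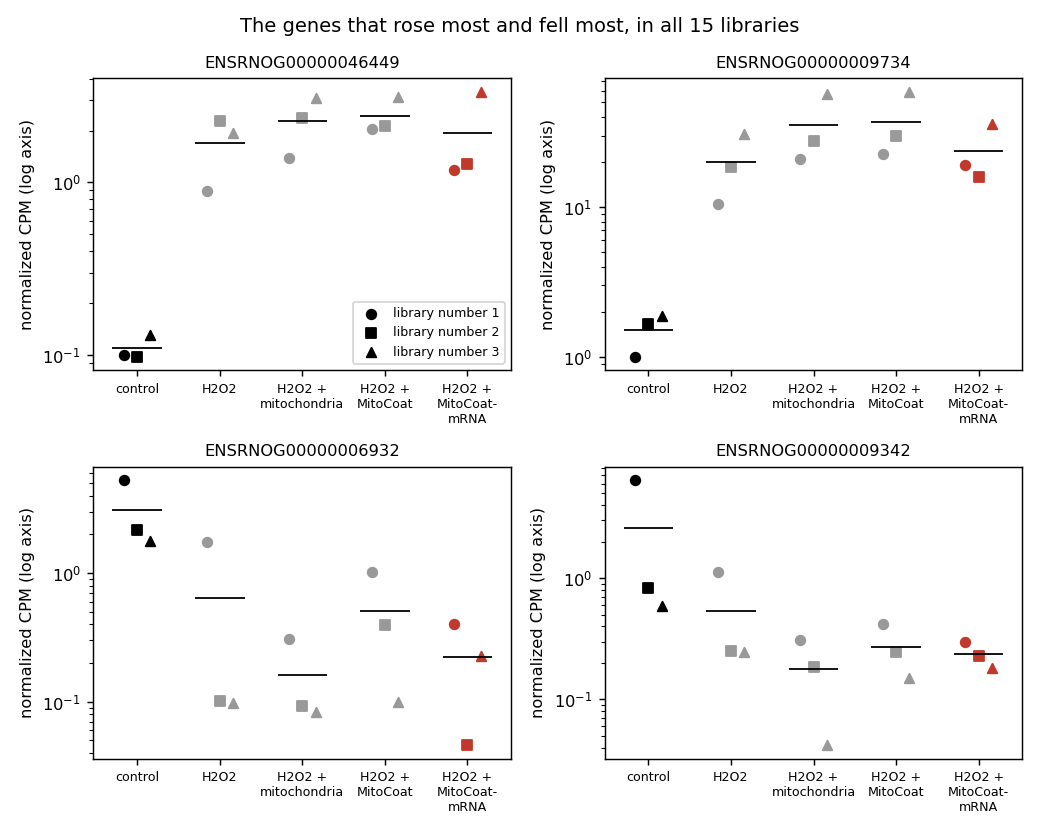
Normalized CPM (vertical log axis) of the genes that rose most (top) and fell most (bottom) in MitoCoat-mRNA against control, in all 15 libraries by group, with the symbol giving the library number and the bar the group mean. ENSRNOG00000046449 lies at 0.0975 to 0.131 CPM in control and at 0.894 to 3.36 CPM in the 4 groups given H2O2, and control library 1 stands above the others for ENSRNOG00000009342.

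Among abundant genes, with a mean of at least 100 CPM, 316 of 2059 were called higher (15.3%) and 243 lower (11.8%), beside 7.18% and 8.72% of all genes tested. The 5 with the largest rise and the 5 with the largest fall are described by position (Rnor6.0), and were chosen after their values were seen. They were taken from called genes whose groups did not overlap, so the call and the absence of overlap were conditions of the choice. The strongest rise was at chromosome 12, 22641104 to 22651482 (plus strand), with 89.9, 103 and 135 CPM in control and 920, 966 and 1150 CPM with MitoCoat-mRNA. Every MitoCoat-mRNA library was more than 6 times above the highest control library, and the log2 fold change was 3.22 ± 0.16 (SE, edgeR adjusted p = 4.03e-05). Close to it on the same chromosome, the gene at 22677607 to 22680630 (minus strand) rose from 66.6, 64.5 and 109 CPM to 329, 349 and 380 CPM, by 2.14 ± 0.19 on the log2 scale (edgeR adjusted p = 0.000511).

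A second pair of neighbours lay on chromosome 10. The gene at 69423086 to 69424979 (plus strand) had 36.7, 24.9 and 19.3 CPM in control and 234, 134 and 176 CPM with MitoCoat-mRNA. The gene at 69412017 to 69413870, on the same strand, had 92.1, 62.6 and 50.2 CPM in control and 321, 215 and 285 CPM with MitoCoat-mRNA. In both genes control library 1 was the highest control and MitoCoat-mRNA library 1 the highest treated library, and the log2 fold changes were 2.76 ± 0.27 and 2.01 ± 0.23 (SE, edgeR adjusted p = 0.000686 and 0.00115). The fifth, on chromosome 5 at 17056419 to 17061837 (minus strand), went from 360, 336 and 506 CPM to 1180, 1160 and 1460 CPM, a log2 fold change of 1.66 ± 0.16 (edgeR adjusted p = 0.000713). It overlaps 1 other annotated gene, and the strand setting of the counting is not given for these libraries in the sources used here, so reads of the overlapping gene may be included.

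The abundant genes that fell most were spread over 4 chromosomes. On chromosome 7, the gene at 142905758 to 142920216 (plus strand) fell from 211, 266 and 226 CPM to 43.3, 58.6 and 43.0 CPM, a log2 fold change of −2.27 ± 0.15 (SE, edgeR adjusted p = 0.000114). On the same chromosome, the gene at 95074236 to 95273298 (plus strand) fell from 159, 227 and 240 CPM to 38.5, 54.2 and 46.1 CPM, with a log2 fold change of −2.17 ± 0.18 (edgeR adjusted p = 0.000312). Both were thus lower by more than 4-fold, and no MitoCoat-mRNA library reached a control level, which the choice of genes required.

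The controls were close together for the gene on chromosome 3 at 52777214 to 52849907 (minus strand), at 196, 207 and 215 CPM in control and 58.2, 58.1 and 52.0 CPM with MitoCoat-mRNA. Its log2 fold change of −1.87 ± 0.08 (SE) had the smallest adjusted p of all genes tested (edgeR, 2.42e-05). On chromosome 13, the gene at 51985684 to 51992693 (minus strand) fell from 208, 231 and 297 CPM to 73.2, 90.0 and 88.3 CPM, with a log2 fold change of −1.54 ± 0.14 (edgeR adjusted p = 0.000511). The gene on chromosome 9 at 52023295 to 52059217 (plus strand) varied with the library number, at 154, 290 and 330 CPM in control and 47.1, 100 and 110 CPM with MitoCoat-mRNA. Its pair ratios were 0.306, 0.345 and 0.333, its log2 fold change was −1.59 ± 0.35 (edgeR adjusted p = 0.0185, and 2.2e-11 with the block), and the call was lost without the block in 3 of the 6 fits that left out a library (adjusted p = 0.0544 to 0.0628). This gene also overlaps 1 other annotated gene, with the same limit on strand.

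The same genes were then read in the group given H2O2 without a later treatment. H2O2 against control shares the control libraries with the comparison above, and MitoCoat-mRNA against H2O2 shares its MitoCoat-mRNA libraries, so the values are set side by side without a measure of overlap. In H2O2 against control, 465 of 15650 genes were called higher (2.97%) and 660 lower (4.22%), 7.19% in all, and 28% of genes had groups without overlap. With the block, 505 were higher (3.23%) and 974 lower (6.22%), 9.45% in all. The common coefficient of variation of that pair of groups was 0.188, against 0.165 for MitoCoat-mRNA and control, and the median absolute log2 fold change of genes at 1 CPM or more was 0.181 against 0.193. Leaving out 1 library gave 145 higher and 231 lower without control 2, 195 and 287 without control 3, 227 and 350 without H2O2 2, 217 and 307 without H2O2 3, 356 and 677 without control 1, and 497 and 669 without H2O2 1. Whether the 2 treatments differ in the number of responding genes was not tested by these counts.

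Tested directly, MitoCoat-mRNA and H2O2 libraries were not distinguished for any gene. Of 15506 genes, 0 were called with edgeR (0%, smallest adjusted p 0.9996), 0 with the library number as a block (smallest adjusted p 0.9487) and 0 with DESeq2. The groups were without overlap for 8.84% of the genes. At an unadjusted p under 0.05, 463 genes (2.99%) passed without the block and 761 with it. The 95% interval of the difference lay within 1.5-fold for 9802 genes (63.2%), and for the other genes a difference of that size was not excluded. The standard deviation of log2 fold changes over genes at 1 CPM or more was 0.19 between these 2 stressed groups and 0.52 between MitoCoat-mRNA and control.

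The genes called against control with MitoCoat-mRNA were then read in both other comparisons. The 1121 genes called higher had a median log2 fold change of 0.49 with MitoCoat-mRNA and of 0.42 with H2O2 over control (quartiles 0.28 and 0.71, 1110 genes tested), and a median difference of 0.09 between MitoCoat-mRNA and H2O2 (quartiles 0.01 and 0.17). For 921 of them (82.2%) that difference was within 1.5-fold over its whole 95% interval. The 1361 genes called lower had medians of −0.78 and −0.63 over control, and a median difference of −0.12 between MitoCoat-mRNA and H2O2 (quartiles −0.25 and −0.03), with 796 of the 1329 tested (59.9%) within 1.5-fold. Since the genes were chosen with the MitoCoat-mRNA libraries, a difference in the direction of the choice is built into these medians. For strongly changed genes the comparison was less exact. Only 66 of the 214 genes more than 2-fold higher (30.8%) and 78 of the 439 tested among those more than 2-fold lower (17.8%) had intervals within 1.5-fold.

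**Figure D4:**
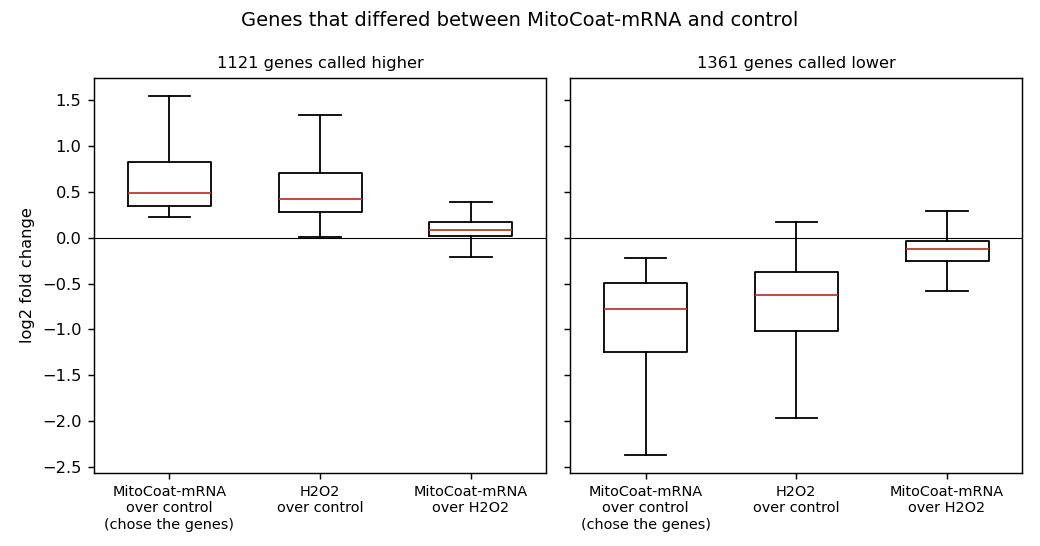
Log2 fold changes (vertical axis) of the 1121 genes called higher (left) and the 1361 called lower (right) in MitoCoat-mRNA over control, in that comparison, in H2O2 over control and in MitoCoat-mRNA over H2O2. Boxes show quartiles, red lines medians and whiskers the farthest values within 1.5 box lengths. Medians are 0.49, 0.42 and 0.09 on the left and −0.78, −0.63 and −0.12 on the right.

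Single genes differed in how closely the interval bounded the difference from H2O2. ENSRNOG00000046449 had 0.894, 2.27 and 1.94 CPM in H2O2 libraries 1 to 3, above all controls (log2 fold change 3.93, edgeR adjusted p = 0.00384), and MitoCoat-mRNA over H2O2 was 0.18 with a 95% interval from −0.90 to 1.26. ENSRNOG00000009734 had 10.5, 18.5 and 30.9 CPM with H2O2 (log2 fold change 3.73, edgeR adjusted p = 0.0022), and MitoCoat-mRNA over H2O2 was 0.24 with a 95% interval from −0.62 to 1.10. The intervals of both genes thus span more than 2-fold.

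The falls of the other 2 genes were not called after H2O2 alone. ENSRNOG00000006932 had 1.73, 0.101 and 0.0984 CPM with H2O2 (log2 fold change over control −2.26, edgeR adjusted p = 0.204) and did not pass the count filter for MitoCoat-mRNA against H2O2. ENSRNOG00000009342 had 1.12, 0.253 and 0.246 CPM with H2O2, a range that overlapped that of control (log2 fold change −2.26, edgeR adjusted p = 0.214). MitoCoat-mRNA over H2O2 was −1.17 for this gene, with a 95% interval from −2.72 to 0.38, so a difference between the stressed groups was not shown. In both genes library 1 was the highest of the 3 H2O2 libraries, as it was among the controls.

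Among the abundant genes, the one on chromosome 12 at 22641104 had 503, 844 and 966 CPM with H2O2, each below the MitoCoat-mRNA library of the same number. Its log2 fold change of H2O2 over control was 2.83 (edgeR adjusted p = 0.00127). MitoCoat-mRNA over H2O2 was 0.39 for this gene, with a 95% interval from −0.07 to 0.85 that included 0. The gene on chromosome 3 at 52777214 had 104, 53 and 61.8 CPM with H2O2, a range that overlapped that of MitoCoat-mRNA. The gene on chromosome 7 at 142905758 had 89.8, 71.5 and 69.9 CPM with H2O2, all above the 43.0 to 58.6 CPM seen with MitoCoat-mRNA. Its difference of −0.68 on the log2 scale had a 95% interval from −1.01 to −0.34 for this gene alone, but an edgeR adjusted p of 1 over all genes. For 3 more of the 10 abundant genes that interval left out 0, each with MitoCoat-mRNA farther from control than H2O2 and an adjusted p of 1. Since the genes were picked for their change with MitoCoat-mRNA, that direction is favoured by the choice. The interval ran from 0.10 to 1.01 for the gene on chromosome 10 at 69423086, from 0.02 to 0.73 for its neighbour at 69412017, and from −0.58 to −0.04 for the gene on chromosome 13 at 51985684. MitoCoat-mRNA over H2O2 was 0.08 at 17056419, 0.12 at 22677607, −0.15 at 95074236, −0.10 at 52023295 and −0.38 at 52777214. Each of those intervals included 0. All 10 abundant genes were also called in H2O2 over control (edgeR adjusted p from 0.000862 to 0.0144), which shares the control libraries.

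Counts from the mitochondrial genome did not separate MitoCoat-mRNA from control. They made up 4.05%, 3.16% and 2.88% of all counts in control libraries 1 to 3 and 4.2%, 3.27% and 2.81% in MitoCoat-mRNA libraries 1 to 3, so that library 1 was highest in both groups. The means were 3.36% ± 0.610 and 3.43% ± 0.712 (SD, n = 3 each), a difference of 0.066 percentage points (two-sided exact permutation p = 0.8, the smallest possible being 0.1). Without MitoCoat-mRNA 1 the difference was −0.323 and without control 1 it was 0.408 points. The rows for the mitochondrial chromosome cover 35 genes, 13 of 204 to 1830 bases (the length range of its protein-coding genes) and 22 of tRNA length.

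Of the 13 longer genes 0 were called without the block, beside 15.9% of all genes, with a smallest edgeR adjusted p of 0.41. Their log2 fold changes ran from −0.16 to 0.27 with a median of 0.04. With the block, 3 were higher and 1 lower (background 36.9%), and the 95% intervals of all 13 lay within 1.5-fold, against 7 of the 13 without the block. The gene at positions 2740 to 3694 was higher by 0.23 ± 0.05 on the log2 scale (SE, edgeR adjusted p = 0.00244 with the block), that at 3904 to 4942 by 0.27 ± 0.05 (adjusted p = 0.000805) and that at 5323 to 6867 by 0.17 ± 0.06 (adjusted p = 0.0289). The gene at 14136 to 15278 was lower, at −0.17 ± 0.06 (adjusted p = 0.0337). These small calls depended on the length correction. With the uncentred correction added to the block, the gene at 14136 was no longer called (−0.13, adjusted p = 0.0542) and that at 8599 to 9382 was called lower (−0.14, adjusted p = 0.0292). With the centred correction and the block, the genes at 2740 and 3904 remained higher, that at 5323 was not called, and those at 7919, 8599 and 14136 were lower (−0.15, −0.22 and −0.21). The genes called in any of these fits had means from 1340 to 11600 CPM in control, whereas the lowest mean of the 13 was 147 CPM, at 10160 to 11537.

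Some genes of tRNA length changed more. Of the 15 that passed the filter, 3 were called higher and 0 lower, and 4 higher with the block, beside 7.18% and 17.3% of all genes called higher without and with the block. The gene at 2665 to 2739 went from 4.98 ± 0.44 to 10.2 ± 0.76 CPM (SD, n = 3 each), which was 1.04 on the log2 scale (edgeR adjusted p = 0.00251). That at 15348 to 15415 went from 21.8 ± 2.82 to 41.6 ± 11 CPM (log2 fold change 0.94, edgeR adjusted p = 0.0115). The third, at 7693 to 7756, stood at 0.363 and 0.904 CPM (log2 fold change 1.31, edgeR adjusted p = 0.0449), a level of few counts. The first of these ends directly before the longer gene at 2740 to 3694, and reads of adjoining transcripts cannot be told apart from those of genes this short. H2O2 alone over control gave log2 fold changes of 0.81, 0.97 and 1.30 for the genes at 2665, 15348 and 7693. Of these the gene at 15348 was called (edgeR adjusted p = 0.0355, against 0.0733 and 0.0744 for the genes at 2665 and 7693). MitoCoat-mRNA over H2O2 was 0.23, −0.02 and 0.01 in the same order, with no call.

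**Figure D5:**
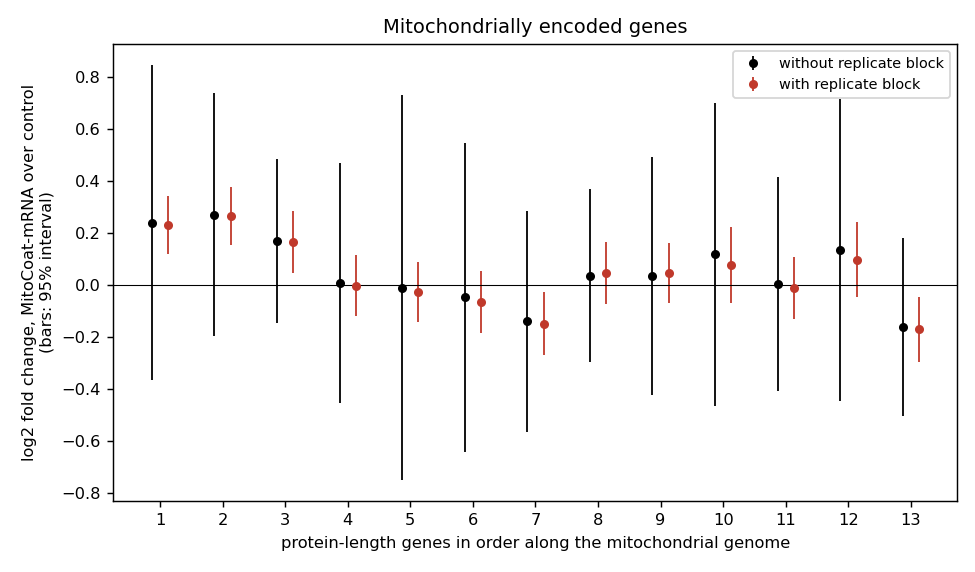
Log2 fold change of MitoCoat-mRNA over control with its 95% interval (vertical axis) for the 13 longer genes of the mitochondrial genome, in their order along it (horizontal axis), without (black) and with (red) the library number as a block. Without the block the values lie between −0.16 and 0.27 and every interval includes 0, and with it the first 3 genes are called higher and the last is called lower.

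Calls differed with gene length and abundance. Over 3 equal groups by exonic length, genes of 42 to 1692 bases were called higher in 7.61% and lower in 5.38%, those of 1693 to 3032 bases in 7.23% and 8.99%, and those of 3033 to 29464 bases in 6.71% and 11.8%. Short genes were thus called higher more often than lower, and long genes the reverse, with median log2 fold changes of 0.06 and −0.05. The balance of the short genes, 396 higher and 280 lower, turned to 231 and 255 without MitoCoat-mRNA 1. With the centred length correction, the shortest genes had 362 calls higher and 342 lower in place of 396 and 280, and the longest 503 and 552 in place of 349 and 613. With the uncentred correction, calls higher increased in both, to 653 higher and 298 lower for the shortest genes and 865 and 443 for the longest, together with the shift of all genes. By abundance, 3.09% of the least abundant genes were called higher and 6.92% lower, and among the most abundant 12% were higher and 9.99% lower. RNA integrity values were not analysed here, and the part of RNA quality in the trend with length was not tested.

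Calls were found on all chromosomes with more than 8 genes tested, and over all genes 7.18% were higher and 8.72% lower. Chromosome 18 had the lowest share of genes called higher of the numbered chromosomes, 16 of 418 (3.83%), with 49 lower (11.7%), and chromosome 13 the highest share called lower, 59 of 485 (12.2%). On chromosome 16 the balance lay the other way, with 8.74% higher and 6.95% lower. On chromosome X 5.93% were higher and 7.78% lower, close to the shares over all genes, and 0 of 8 genes on chromosome Y were called, too few to set beside 15.9% of all genes. These shares were not tested against each other.

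Many genes called in the same direction lay within 1000000 bases of each other, mostly in stretches that also held uncalled genes. Joining called genes no more than 1000000 bases apart gave 75 groups of at least 4 genes called higher, holding 483 of the 1121 genes (43.1%), and 97 such groups of genes called lower, holding 587 of the 1361 (43.1%). Most held many genes that were not called, as only 9 of the groups of higher genes and 10 of those of lower genes had more than 50% of their tested genes called. The groups named here were taken from those with the highest share called, which exceeds the 7.18% and 8.72% of all genes by construction. On chromosome 7 at 60719066 to 60860990, 4 of 4 genes tested were higher, with log2 fold changes of 0.26 to 1.08. On chromosome 2 at 113984646 to 115836846, 5 of 6 were lower, with log2 fold changes of −2.95 to −0.28. ENSRNOG00000009734 lay in a stretch of chromosome 4, 61706864 to 63039422, in which 9 of 15 genes were higher and 1 lower. Whether such groups exceed those of called genes placed at random was not tested.

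Few genes were detected in only 1 of the 2 groups. 48 genes had no count in any control library and at least 1 count in each MitoCoat-mRNA library, and 1 of these had at least 5 counts in each. The reverse was true of 77 genes, 5 of them with at least 5 counts in each control library. The 1 gene with at least 5 counts in each MitoCoat-mRNA library was ENSRNOG00000016616 on chromosome 17, with 8, 14 and 6 counts there. It had 2, 4 and 4 counts with H2O2 alone. After H2O2 it had 10, 16 and 4 counts with unmodified mitochondria, and 27, 34 and 18 with lipid-coated mitochondria (MitoCoat). The origin of these reads was not tested. To see whether transcripts were found only where encapsulated RNA had been given, H2O2 libraries were added to the control side. 5 genes had no count in the 6 control and H2O2 libraries and at least 1 in each MitoCoat-mRNA library, with 2 to 10 counts per library, and 0 had at least 5 in each. For comparison, 11 genes were detected in all H2O2 libraries and in none of the control and MitoCoat-mRNA libraries, and 0 of them had at least 5 counts in each. RNA of rat origin that the astrocytes also express could not be told apart from their own in these counts.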

How the data were processed

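Each library was a bulk RNA-seq library of primary rat astrocytes, 3 in each of 5 groups taken from the sample titles. According to the methods, adapters and low-quality bases were removed with Trimmomatic 0.36, STAR 2.5.2b mapped the reads to Rnor6.0 under Ensembl's annotation, and featureCounts of Subread 1.5.2 assigned unique alignments to exons. The deposited files hold the resulting raw counts, which the authors did not normalize. Of 108140 non-zero values from 1 to 100, 90.8% were even, so both reads of a pair may have been counted, and counting precision may be lower than the counts imply. The labels describe extraction from mitochondria-enriched fractions, whereas the study's methods describe profiling of treated astrocytes. The latter was assumed. 1 file identical to another library's was not used here.

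Testing was done in edgeR 4.0.16 (R 4.3.3) on the 6 libraries of each comparison (filterByExpr, TMM, quasi-likelihood F test, two-sided, Benjamini-Hochberg adjusted p under 0.05). Displayed CPM used TMM factors of all 15 libraries, and fold changes came from the 6-library fits. Intervals are 95%. Same-numbered libraries were taken as pairs because each same-number correlation of deviations between control and MitoCoat-mRNA exceeded 0.1. Such correlations were not analysed for the H2O2 libraries, to which the same block was applied. Shares of counts were compared by exact permutation tests. Alternatives were DESeq2 1.42.0, fits on all 15 libraries, RLE size factors, other count filters, the library number as a block, a loess correction for exonic length (span 0.3), each library left out in turn and, added after seeing the data, counts divided by 2 and length offsets centred to a mean of 0 in each library. The fits were tested on simulated data. Python 3.11.15 with matplotlib 3.10.9 was used for figures.

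The genes named by identifier were the 2 that rose most and the 2 that fell most by absolute log2 fold change among called genes whose groups did not overlap and whose mean reached 1 CPM (1066 rose and 1287 fell). The comparison, the groups of genes and this rule were chosen with earlier results of these data known. Lists of genes by function and cell type were not analysed here, for want of gene names, and no sequences are shown.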

Additional observations from a re-analysis of the deposited data

How the results depend on the processing

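The numbers of genes called in MitoCoat-mRNA against control, 1121 higher and 1361 lower, moved with the pairing, the length correction and the libraries used. They were 2705 and 3051 with the replicate block, 2244 higher with the gene length correction, 4167 and 2402 with the replicate block and the length correction together, and 2816 and 2994 with the block and the centred length correction. The uncentred correction also shifted the median of all genes by 0.08, and with its offsets centred 1270 and 1402 were called without the block. Leaving out 1 library gave 509 to 1294 higher and 737 to 1474 lower. DESeq2, RLE size factors, the 15-library fits, the other filters and counts divided by 2 stayed within 1.5 times of both counts. For H2O2 against control, DESeq2 on 6 libraries called 715 higher and 1066 lower, and leaving out 1 library gave 145 to 497 higher and 231 to 677 lower. The fits that leave 1 library out rest on fewer libraries. The causes of the shifts were not tested, apart from the centring given above. MitoCoat-mRNA against H2O2 had 0 calls under the alternatives run for it. These were DESeq2 on 6 libraries, the block and each library left out in turn. The difference in mitochondrial share ranged from −0.323 to 0.408 points when 1 library was left out, and stayed at 0.066 in pairs (paired exact p = 0.5). For the genes given by identifier or position outside the mitochondrial genome, 242 alternative values kept direction and call, 7 lost the call and 0 reversed. The block changed no call among these genes, but added 4 among the 13 longer mitochondrial genes.

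Uncalled mitochondrial genes near 0 changed sign under some alternatives. The gene at 11736 to 13565 was −0.00165 with edgeR and −0.00572 with DESeq2 on 15 libraries, −0.000148 with the filter of at least 10 counts, −0.00952 with the block, and −0.0124 without and −0.0254 with the block under the centred length correction. The gene at 7006 to 7689 was −0.00149 with DESeq2 on 15 libraries, −0.00183 with the block, −0.000669 with the length correction, −0.0074 with both, and −0.0745 and −0.0823 under the centred correction without and with the block. The gene at 7758 to 7961 was 0.000666 with the filter of at least 1 count and 0.00565 with the length correction. Under the centred correction, without and with the block, the gene at 9451 to 9798 was −0.0264 and −0.0184 and that at 9870 to 10166 was −0.0228 and −0.0137. With 1 library left out, the longer genes whose sign changed ranged, in order along the genome, from −0.193 to 0.184, from −0.295 to 0.274, from −0.292 to 0.179, from −0.318 to 0.0202, from −0.0787 to 0.205, from −0.12 to 0.259, from −0.226 to 0.323, from −0.172 to 0.168 and from −0.0816 to 0.388. The lists by gene function were not run.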
